A study of Mus musculus with 7 samples.

Results

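The genes examined here encode the constitutive proteasome, with its activators, its inhibitor protein and its assembly chaperones. They were picked by a rule on gene names, and the rule was set with earlier results of these data known. A probe set was taken when the platform annotation gave it a single gene symbol made of Psm, a letter from a to g and a number, and the inducible subunits Psmb8, Psmb9 and Psmb10 were left out. This gave 96 probe sets of 44 genes, out of 45037 probe sets on the array. A probe set annotated to both Psme2 and a second gene has more than 1 symbol and is not a member. Expression was measured in D3 mouse embryonic stem cells, an established line, on Affymetrix Mouse 430 2.0 arrays. There were 2 wild type samples and 5 samples of cells lacking calreticulin (calreticulin knockout), a chaperone that binds calcium in the endoplasmic reticulum. Both groups share the D3 background, and the labels name no treatment. Each sample was a pool of at least 3 cultures harvested together and counts as 1 biological replicate, per the design text. Whether 1 or several knockout clones were used is not stated in the labels, and the p-values below reflect spread among these 7 pools only.

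The proteasome degrades proteins that carry ubiquitin chains. Its core particle is a stack of rings, with alpha subunits forming the gated outer rings and beta subunits the inner rings that hold the proteolytic sites. A regulatory particle on the end of the core binds ubiquitin chains, removes them and unfolds the substrate with a ring of ATPases. Activator proteins can take the place of the regulatory particle, and dedicated chaperones guide assembly of the core. Proteins rejected by quality control in the endoplasmic reticulum are returned to the cytosol and degraded there by proteasomes. Cells of most tissues transcribe the subunit genes together, and the transcription factor encoded by Nfe2l1 raises their transcription when proteasome activity is low.

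Values below are signals, 1 per probe set and array, on the linear scale of the deposited table. Every array had been scaled to the same trimmed mean of 500. Differences are knockout minus wild type on the scale log2(signal + 20.2), fitted with limma over the 27022 probe sets that passed a filter on low signal. A probe set was called when its p, adjusted by the Benjamini-Hochberg method over all of them, was below 0.05. The brightest tested probe set stands for its gene, and signals of different genes are not compared with each other. Of the members, 84 probe sets of 43 genes passed the filter. The gene without one was Psmb11, the beta subunit of the thymus, whose signals ran from 5.8 to 91.4.

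Calr, the targeted gene, had signals of 12460 and 10840 in wild type arrays and of 577.4 to 1064 in knockout arrays at its brightest probe set. The difference was -3.68 (SE 0.30, limma adjusted p = 0.00595), and it was -3.58 without wild type array 1 (adjusted p = 0.254) and -3.78 without wild type array 2 (adjusted p = 0.129). In these fits the spread comes from the knockout arrays alone, and the lone wild type array is assumed to vary like them. Whether this probe set lies in the deleted part of the gene was not tested. Knockout arrays 2 and 3 stood apart. They correlated with each other at r = 0.985 across tested probe sets and with the other arrays at 0.843 to 0.902, while the other 5 correlated at 0.920 to 0.972. Their Lys control signals, from a bacterial transcript added to the RNA, were 11152 and 8195, against 2796 to 3630 in the others, and their log2 ratios of 3' to 5' Actb probe sets were 0.79 and 0.89, against 1.46 to 2.08. All 10 stem cell markers on the list (such as Pou5f1, Nanog and Sox2) were tested, with summed signals of 83531 and 98323 in wild type and 80380 to 112543 in knockout arrays. The sum does not stand for each marker. Pou5f1 had signals of 11726 and 10184 in wild type arrays, 4891 and 4687 in knockout arrays 2 and 3, and 8770 to 11549 in the others. Knockout arrays 2 and 3 were the lowest pair in 4 of the 10 markers and the highest pair in 2. Of 10 fibroblast markers 8 passed the filter and Lum and Twist1 did not; the summed signal of the list was 4646 and 4493 in knockout arrays 2 and 3, 769.3 to 1226 in the other knockout arrays, and 1622 and 1327 in wild type arrays. The summed signal of 6 primitive endoderm markers was 1395 and 2546 in wild type and 866.8 to 1753 in knockout arrays, and that of 3 lymphoid and blood markers, of which 1 passed the filter, was 143.8 to 217.2. Of the 6 endoderm markers, 5 had a negative difference and 1 a positive one (median -0.69). In 2 of them, Sox7 and Sox17, all 5 knockout arrays lay below both wild type arrays, as in 7.44% of all genes. No marker on these lists was at 0. The part of these measures in the results below was not tested. In bulk RNA, fewer cells of a type and less RNA per cell cannot be told apart.

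At the brightest probe set of each gene, the constitutive proteasome genes had lower signals in the knockout group almost throughout, but no member passed the test. Over all 84 tested member probe sets, 62 had a negative difference, and the share over all tested probe sets was not computed. Of 43 genes, 40 had a negative difference, where the share over all 13120 tested genes was 50.3%. Their median difference was -0.50, against -0.0041 over all genes. The largest negative difference was that of the ATPase gene Psmc5 (-1.41) and the largest positive one that of Psma8 (1.33), an alpha subunit gene known from the testis. Limma called 0 of the 84 member probe sets, where 8 of all tested probe sets, 0.0296%, were called (0.0185% lower and 0.0111% higher). That total was 0 without wild type array 1 or 2, 4 without knockout array 1, and 5 without knockout array 4 or 5. Adjusted p-values of the 43 genes ran from 0.575 to 0.990. At an unadjusted limma p below 0.05 there were 7 member probe sets lower (2.61% of all tested) and 2 higher (5.81% of all tested). By gene there were 5 lower, Psmc5, Psmb3, Psmd4, Psmb6 and Psmd11, where the share over all genes was 3.22%, and 1 higher, Psma8, where it was 4.38%.

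**Figure D1:**
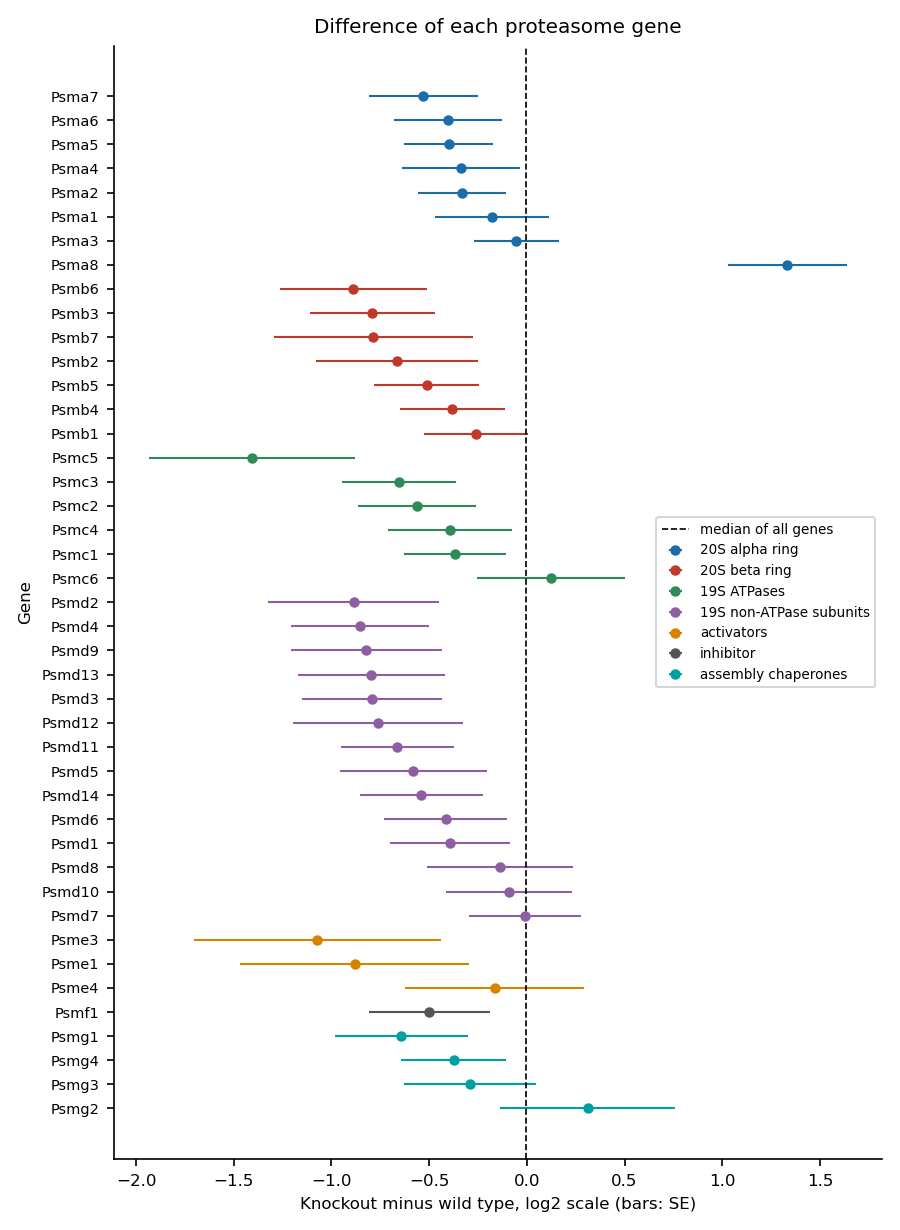
Difference between knockout and wild type (horizontal axis, log2 scale, bars are SE) for each of the 43 tested proteasome genes, coloured by role, with the median of all tested genes as a dashed line. All genes but Psma8, Psmc6 and Psmg2 lie to the left of zero, with Psmc5 lowest at -1.41.

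The difference was largest in knockout arrays 2 and 3. Set against the wild type mean, the median of the 43 genes was -0.81 in knockout array 2 and -0.89 in array 3. It was -0.21, -0.17 and -0.31 in knockout arrays 1, 4 and 5, and 0.13 and -0.13 in the wild type arrays. The same median over all tested genes stayed between -0.05 and 0.05 in every array. After quantile normalization the members' medians were -0.64 and -0.73 in knockout arrays 2 and 3, but only -0.11, -0.089 and -0.13 in knockout arrays 1, 4 and 5, close to the 0.11 and -0.11 of the wild type arrays. Over all genes they were then -0.16 and -0.18 in knockout arrays 2 and 3 and -0.06, 0.01 and -0.05 in knockout arrays 1, 4 and 5. For 34 of 43 genes (79.1%), knockout arrays 2 and 3 were the 2 lowest of the 7, a pattern found in 26.0% of all genes. With a mean log2 value above 12, it was found in 24 of 27 members (88.9%) and in 51.3% of all genes. At a mean log2 value up to 12, it was found in 10 of 16 members (62.5%) and in 23.9% of all genes. In 2 genes (4.65%), Psma8 and Psmg2, knockout arrays 2 and 3 were the 2 highest, against 24.6% of all genes. Without these arrays the members' median was -0.21, with 37 of 43 negative, against -0.01 over all genes.

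In 15 genes all 5 knockout arrays lay below both wild type arrays, which is 34.9% of members, where the share over all genes was 7.44%. Of the 27 members with a mean log2 value above 12, 14 were among them (51.9%), against 16.4% of all genes that bright. Of the 16 members of lower signal, 1 was (6.25%), against 6.70% of all genes of lower signal. The lower genes were Psma2, Psma5, Psma6, Psmb3, Psmb6, Psmc2, Psmc3, Psmc5, Psmd2, Psmd4, Psmd5, Psmd11, Psmd12, Psmd14 and Psmg1. With only knockout arrays 1, 4 and 5 used, these genes meet the criterion by construction, and no other member joined them (10.8% of all genes). After quantile normalization the count was 7 (Psma5, Psmb3, Psmc3, Psmc5, Psmd4, Psmd11 and Psmg1), or 16.3%, against 9.43% of all genes. With wild type array 2 left out it was 31 (72.1%, against 28.2% of all genes). Psma8 was the only member above both wild type arrays in all 5 knockout arrays (6.41% of all genes). With arrays 1, 4 and 5 alone no other member joined it (10.4% of all genes).

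Bright genes as a whole were also lower in knockout arrays 2 and 3. The 99th percentile of signal was 9546 and 9392 in these arrays, 9739 to 11551 in the other knockout arrays and 12006 and 11226 in the wild type arrays. Of 997 genes with a mean log2 value above 12, 69.1% had a negative difference, with a median of -0.20, and their medians in knockout arrays 2 and 3 were -0.39 and -0.45. Of the members, 27 are that bright, with 26 negative, a median of -0.51, and medians of -0.82 and -0.94 in those arrays. The 16 members of lower signal had a median of -0.44, with 14 negative, where all 12123 genes of lower signal had a median of 0.01. The part of signal level in the members' difference was not tested. After quantile normalization, which gives all arrays one distribution, the members' median was -0.37 against -0.09 over all genes.

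**Figure D2:**
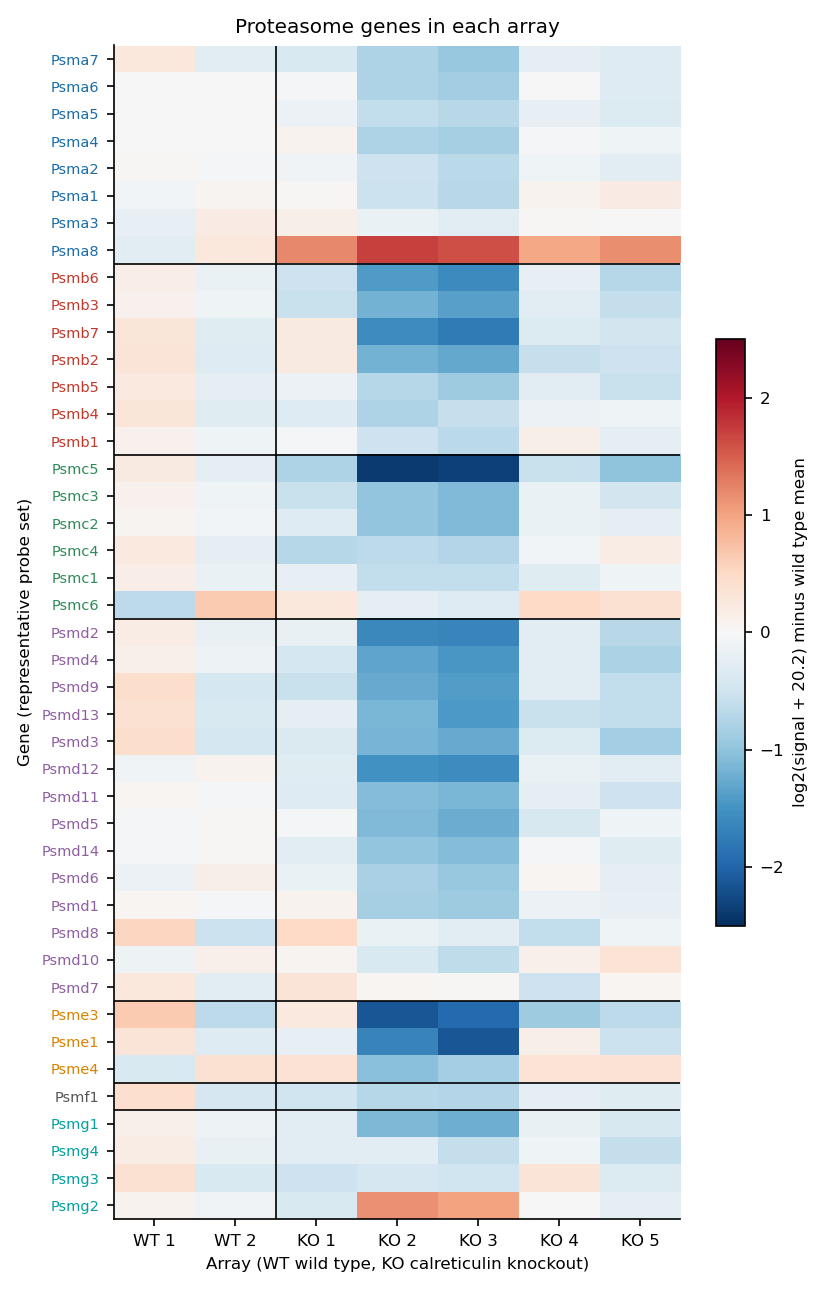
Value of each tested proteasome gene in each array (columns; WT wild type, KO knockout) as log2(signal + 20.2) minus the wild type mean, with genes in rows grouped by role and label colour. KO 2 and KO 3 are the lowest 2 arrays in 34 of the 43 rows, and Psma8 is above both wild type arrays in all 5 knockout arrays.

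The alpha ring gates entry to the core. Its 8 tested genes had a median of -0.33, with 7 negative, against -0.66 for the beta ring; the difference between the rings was not tested. Psma7 had the largest negative difference in the ring. Its signals were 9102 and 6249 in wild type arrays and 5764, 4412, 3926, 6468 and 5998 in knockout arrays 1 to 5. Knockout array 4 lay between the wild type values, and the difference was -0.53 (SE 0.28, limma adjusted p = 0.575). Psma6 stood at 12251 and 12372 in wild type arrays and at 11869, 7241, 6765, 12244 and 9805 in knockout arrays. Its groups did not overlap, but knockout array 4 was almost level with the lower wild type array (-0.40, SE 0.28). Psma2 and Psma5 were also lower in every knockout array, by -0.33 and -0.40. Psma3 was nearly level, with 8720 and 11624 in wild type and 8225 to 11134 in knockout arrays (-0.05, SE 0.22), and Psma1 stood at -0.18 (SE 0.29).

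Psma8 encodes an alpha subunit that takes the place of the Psma7 product in proteasomes of male germ cells. Its signals were 193.1 and 288.3 in wild type arrays and 568.3, 823.5, 763.1, 481.2 and 557.0 in knockout arrays 1 to 5. All 5 knockout arrays lay above both wild type arrays, and knockout arrays 2 and 3 were the highest. The knockout mean was 639 ± 147 (SD, n = 5) against 241 ± 67.3 (SD, n = 2), a difference of 1.33 (SE 0.31). The unadjusted limma p was 0.00161 and the adjusted p 0.575, so it was not called. Over 19 alternatives the difference ran from 1.07 to 1.60, with adjusted p from 0.195 to 0.949, and without knockout arrays 2 and 3 it was 1.11. A single probe set measures this gene.

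The beta ring carries the proteolytic sites, and all 7 of its tested genes had a negative difference (median -0.66). In all 7, knockout arrays 2 and 3 were the 2 lowest arrays. Psmb6, Psmb7 and Psmb5 encode the catalytic subunits, which cleave after acidic, basic and hydrophobic residues. Psmb6 had signals of 13699 and 10960 in wild type arrays and of 8560, 4600, 4036, 10681 and 7439 in knockout arrays. Its groups did not overlap, with knockout array 4 just below wild type array 2. The knockout mean was 57.3% of the wild type mean (7063 ± 2771 against 12330 ± 1937), with a difference of -0.89 (SE 0.38, limma adjusted p = 0.575). Without knockout arrays 2 and 3 it was -0.48.

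Psmb7 overlapped between the groups. Its signals were 15887 and 10402 in wild type arrays and 14924, 4316, 3768, 10072 and 9351 in knockout arrays, a difference of -0.79 (SE 0.51). Knockout array 1 lay close to the higher wild type array, and knockout arrays 2 and 3 lay far below the rest. Without these arrays the Psmb7 difference was -0.20. Psmb5 stood at 11875 and 8368 in wild type arrays and at 9005, 6079, 5396, 8292 and 6772 in knockout arrays (-0.51, SE 0.27). Its knockout array 1 lay between the wild type arrays, and the difference without knockout arrays 2 and 3 was -0.32. Psmb7 and Psmb5 had the same order of all 7 arrays, and Psmb6 shared with them the 2 lowest arrays and the highest.

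**Figure D3:**
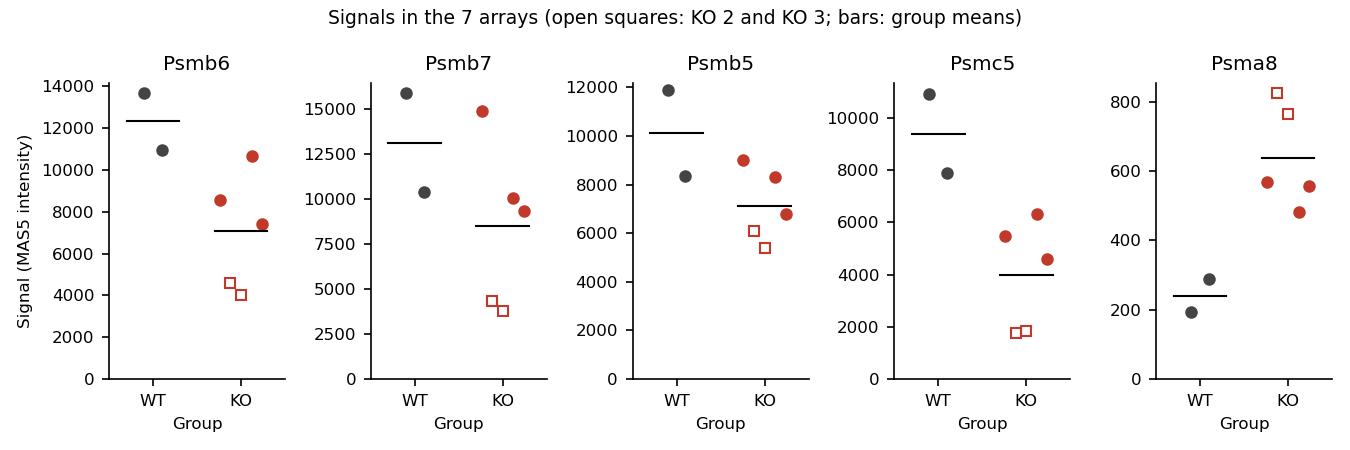
Signals (linear scale, axes from 0) of the catalytic subunit genes Psmb6, Psmb7 and Psmb5, of Psmc5 and of Psma8 in the 2 wild type (grey) and 5 knockout (red) arrays, with bars at group means and open squares for knockout arrays 2 and 3. The open squares are lowest in Psmb6, Psmb7, Psmb5 and Psmc5 and highest in Psma8.

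Because these genes had low values in the same arrays, their upstream sequences were read for the element bound by the Nfe2l1 and Nfe2l2 proteins with small Maf partners. The core motif TGACNNNGC was searched on both strands in the 250 bases before each start site of the RefSeq promoter table (GRCm38.p6), which holds 36 of the 44 genes. It was found in 5 of these (13.9%), Psmb5, Psmb6, Psmc6, Psmd9 and Psmd12. By window it was found in 5 of 38 member windows and in 10.2% of all 32851 such windows. The motif CCAAT, also read on both strands, can share an end letter with the first. It was found in 13 of the 36 genes (36.1%). By window it was found in 13 of 38 member windows and in 33.8% of all windows. The upstream windows of Psmb5 and Psmb6 are shown as catalytic genes that hold the first motif. Psmc5 is shown as the gene with the largest negative difference, with no match, and Psmc6 as a gene with a match and a positive difference. Capitals mark the match, and each sequence reads 5′ to 3′ on the strand of its gene.
Psmb5, chr14:54617996-54618245, minus strand: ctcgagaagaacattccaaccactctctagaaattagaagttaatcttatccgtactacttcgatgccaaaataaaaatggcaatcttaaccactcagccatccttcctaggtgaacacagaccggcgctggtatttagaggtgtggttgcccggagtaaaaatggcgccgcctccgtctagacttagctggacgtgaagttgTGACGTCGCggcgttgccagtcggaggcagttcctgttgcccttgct
Psmb6, chr11:70525107-70525356, plus strand: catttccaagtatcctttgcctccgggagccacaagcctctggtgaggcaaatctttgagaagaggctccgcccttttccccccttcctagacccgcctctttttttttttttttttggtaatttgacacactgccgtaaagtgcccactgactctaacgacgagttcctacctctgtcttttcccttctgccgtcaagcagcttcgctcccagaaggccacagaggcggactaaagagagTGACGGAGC
Psmc5, chr11:106255935-106256184, plus strand: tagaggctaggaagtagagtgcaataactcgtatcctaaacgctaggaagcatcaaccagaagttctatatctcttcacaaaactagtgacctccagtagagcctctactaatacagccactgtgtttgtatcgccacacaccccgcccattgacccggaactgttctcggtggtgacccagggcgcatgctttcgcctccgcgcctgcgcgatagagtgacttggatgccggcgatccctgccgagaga
Psmc6, chr14:45329574-45329823, plus strand: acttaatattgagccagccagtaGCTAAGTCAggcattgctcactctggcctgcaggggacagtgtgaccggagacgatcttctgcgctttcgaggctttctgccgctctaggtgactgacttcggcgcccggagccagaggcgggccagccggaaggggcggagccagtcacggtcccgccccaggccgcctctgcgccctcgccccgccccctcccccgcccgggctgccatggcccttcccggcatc
The match lies 47 to 39 bases before the start site in Psmb5, 9 to 1 bases before it in Psmb6, and 227 to 219 bases before it, on the opposite strand, in Psmc6. A match describes the letters only.

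The other beta subunits, which have no proteolytic site, followed the same arrays. Psmb3 had signals of 9825 and 8352 in wild type arrays and of 6161, 3996, 3523, 7533 and 5979 in knockout arrays. All knockout arrays lay below both wild type arrays (-0.79, SE 0.32, limma adjusted p = 0.575), and the difference without knockout arrays 2 and 3 was -0.47. Psmb2, Psmb4 and Psmb1 stood at -0.66, -0.38 and -0.26 and overlapped between the groups.

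The inducible subunits that can replace the catalytic ones were also lower in knockout arrays 2 and 3. Psmb8, the inducible counterpart of Psmb5, had signals of 1223 and 202.3 in wild type arrays and of 236.9, 16.3, 8.1, 678.0 and 218.7 in knockout arrays. The wild type arrays lay far apart, with knockout arrays 1, 4 and 5 between them (-1.97, SE 1.20, adjusted p = 0.587).

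The ATPase ring of the regulatory particle unfolds substrates and opens the gate of the core. Of its 6 genes 5 had a negative difference, and the median was -0.48. Psmc5 had signals of 10892 and 7886 in wild type arrays and of 5457, 1757, 1834, 6306 and 4602 in knockout arrays. Every knockout array lay below both wild type arrays, and knockout arrays 2 and 3 lay lowest. The knockout mean was 42.5% of the wild type mean (3991 ± 2093, n = 5, against 9389 ± 2126, n = 2), a difference of -1.41 (SE 0.53, limma adjusted p = 0.575). Without knockout arrays 2 and 3 the difference was -0.77, and over all alternatives it ran from -1.64 to -0.77, with adjusted p from 0.321 to 0.949.

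Psmc3 stood at 7740 and 6718 in wild type arrays and at 4922, 3644, 3332, 6422 and 5212 in knockout arrays (-0.65, SE 0.29). Psmc2 stood at 12946 and 11840 in wild type arrays and at 9925, 6222, 5768, 11104 and 10395 in knockout arrays (-0.56, SE 0.30). In both genes all 5 knockout arrays were lower, and the differences without knockout arrays 2 and 3 were -0.39 and -0.24. Psmc4 and Psmc1 stood at -0.39 and -0.37 and overlapped.

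Psmc6 was the exception in the ring. Its signals were 2897 and 7182 in wild type arrays and 5492, 3913, 3670, 6456 and 5957 in knockout arrays, a difference of 0.12 (SE 0.38). Wild type array 1 was the lowest of the 7 and wild type array 2 the highest. Without wild type array 1 the difference was -0.53, and the remaining wild type array then lay above every knockout array. Its other probe sets stood at 0.70 and 1.11, and wild type array 1 was the lowest array in both of them too.

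The non-ATPase genes include the ubiquitin receptors, the deubiquitinase and the scaffold of the regulatory particle, and Psmd5, Psmd9 and Psmd10, which encode chaperones of its assembly. All 14 had a negative difference, with a median of -0.62 and a range from -0.89 to -0.01. Psmd2, a large scaffold subunit, had signals of 11090 and 8607 in wild type arrays and of 8556, 3164, 3094, 8045 and 6074 in knockout arrays. The groups did not overlap, though knockout array 1 lay only just below wild type array 2 (-0.89, SE 0.44). Psmd4, a ubiquitin receptor, had signals of 7836 and 6485 in wild type arrays and of 5282, 2843, 2603, 5821 and 4134 in knockout arrays. Each knockout array was lower (-0.85, SE 0.35), and the difference without knockout arrays 2 and 3 was -0.50, against -0.38 for Psmd2.

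Psmd14, the deubiquitinase that releases ubiquitin chains, stood at 9189 and 9494 in wild type arrays and at 7761, 4683, 4396, 9053 and 7535 in knockout arrays (-0.54, SE 0.32). Psmd11, a scaffold subunit of the lid, stood at 15756 and 14769 in wild type arrays and at 12161, 7190, 6861, 12846 and 10708 in knockout arrays (-0.66, SE 0.29). Psmd12, also of the lid, stood at 9262 and 10435 in wild type arrays and at 7924, 3427, 3284, 8809 and 8218 in knockout arrays (-0.76, SE 0.43). These 3 genes shared one picture, with knockout array 4 nearest to the wild type arrays and knockout arrays 2 and 3 farthest from them. Without the latter their differences were -0.21, -0.36 and -0.24.

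Psmd5 stood at 2906 and 3019 in wild type arrays and at 2874, 1371, 1243, 2230 and 2734 in knockout arrays (-0.58, SE 0.38). Knockout array 1 was almost level with wild type array 1, and all knockout arrays lay below both. Psmd13 stood at 4310 and 2544 in wild type arrays and at 2816, 1488, 1214, 2241 and 2165 in knockout arrays (-0.80, SE 0.38). Its wild type arrays lay far apart, with knockout array 1 between them. Of the remaining genes, Psmd9 and Psmd3 stood at -0.82 and -0.79, Psmd6 and Psmd1 at -0.42 and -0.39, and Psmd8, Psmd10 and Psmd7 between -0.14 and -0.01. All of these overlapped between the groups, and the wild type arrays of Psmd9 and Psmd3 lay far apart. Psmd7 and Psmd8 were the 2 genes of this role in which knockout arrays 2 and 3 were not the lowest pair.

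**Figure D4:**
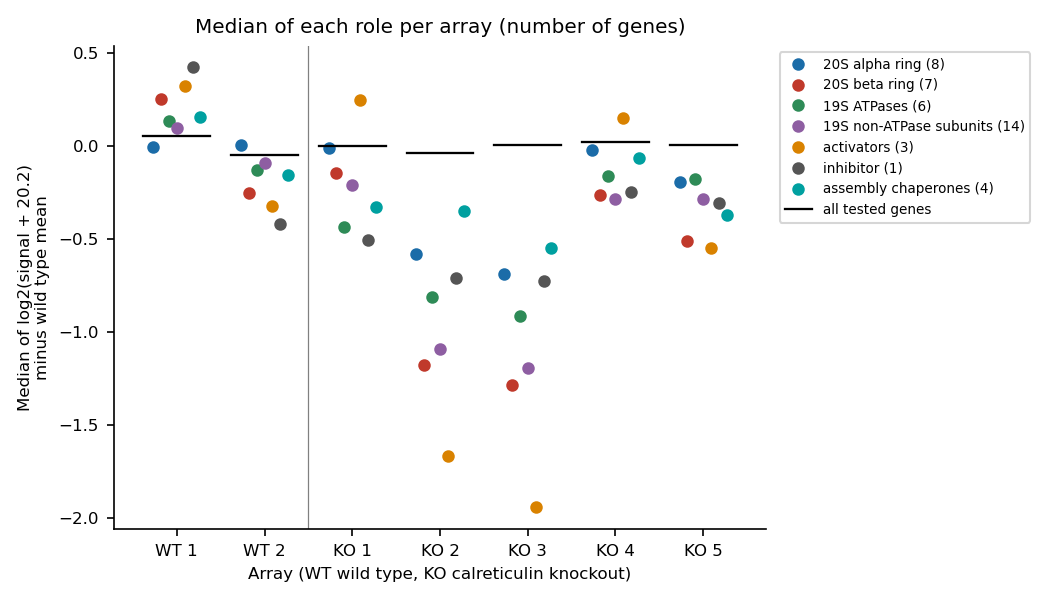
Median over the genes of each role (number of genes in the legend) in each array, as log2(signal + 20.2) minus the wild type mean, with black bars for the median of all tested genes. All roles lie below the black bar in KO 2 and KO 3, with the activators lowest at -1.67 and -1.94 and the assembly chaperones highest at -0.35 and -0.55.

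The activators open the core without the help of ATP. Psme3, a nuclear activator, had signals of 2335 and 925.0 in wild type arrays and of 1752, 320.5, 368.1, 790.6 and 927.3 in knockout arrays. The groups overlapped, the wild type arrays differed widely, and the difference was -1.07 (SE 0.63, limma adjusted p = 0.582). Psme1, a subunit of the interferon-inducible activator, stood at 6016 and 3839 in wild type arrays and at 4155, 1497, 1077, 5341 and 3284 in knockout arrays (-0.88, SE 0.59). Psme4, a large nuclear activator, stood at 5443 and 9328 in wild type arrays and at 9173, 3456, 3960, 9032 and 9148 in knockout arrays (-0.16, SE 0.46). In all of these, knockout arrays 2 and 3 were the lowest pair, while the other knockout arrays lay within or near the wild type range. Without them the Psme4 difference was 0.35 and that of Psme3 was -0.43.

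Psmf1 encodes an inhibitor protein that binds the core. Its brightest probe set stood at 1145 and 629.4 in wild type arrays and at 592.9, 511.3, 506.3, 712.5 and 682.1 in knockout arrays (-0.50, SE 0.31). The groups overlapped, since wild type array 2 lay below 2 knockout arrays.

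Among the assembly chaperones, which pair up to build the alpha ring, the genes went different ways. Psmg1 had signals of 7474 and 6224 in wild type arrays and of 5640, 3133, 2907, 5999 and 5128 in knockout arrays. All knockout arrays lay below both wild type arrays (-0.64, SE 0.34), and without knockout arrays 2 and 3 the difference was -0.29. Psmg2, whose product forms a pair with that of Psmg1, stood at 2842 and 2490 in wild type arrays and at 2051, 5916, 5394, 2634 and 2278 in knockout arrays. Here knockout arrays 2 and 3 were the highest pair, and the difference was 0.31 (SE 0.45, limma adjusted p = 0.796). Without them it was -0.20. Its next brightest probe set showed the same arrays on top, at 4926 and 4772 against 1838 to 2318 in the other knockout arrays. Psmg3 and Psmg4 stood at -0.29 and -0.38.

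Probe sets of the same gene did not always point the same way. Of 22 genes with several tested probe sets, 7 had probe sets of opposite sign more than 0.5 apart: Psma1, Psma3, Psma6, Psmd4, Psmd13, Psme4 and Psmg3. In each of these the brightest probe set was negative. In Psma1 the brightest stood at -0.18, while the dimmest had signals of 20.8 and 40 in wild type arrays and of 47.3, 231.6, 266.8, 42.7 and 81.2 in knockout arrays (1.34, SE 0.62). Knockout arrays 2 and 3 were thus lowest in the former and highest in the latter. The dimmest Psma6 probe set likewise stood at 0.96 (SE 0.49), with its highest signals of 150.4 and 206.5 in those arrays. Of 28 tested member probe sets with a mean wild type signal under 1000, 17 had a positive difference, against 5 of 56 with a higher signal. The shares over all tested probe sets at this split were not computed. Over all genes split at a mean log2 value of 12, 48.8% of those up to it and 69.1% of those above it were negative. The 41 probe sets that do not represent a gene had a median difference of -0.0033, with 22 negative. With all tested probe sets of a gene averaged before the fit, the members' median was -0.48 and 34 of 43 genes were negative.

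**Figure D5:**
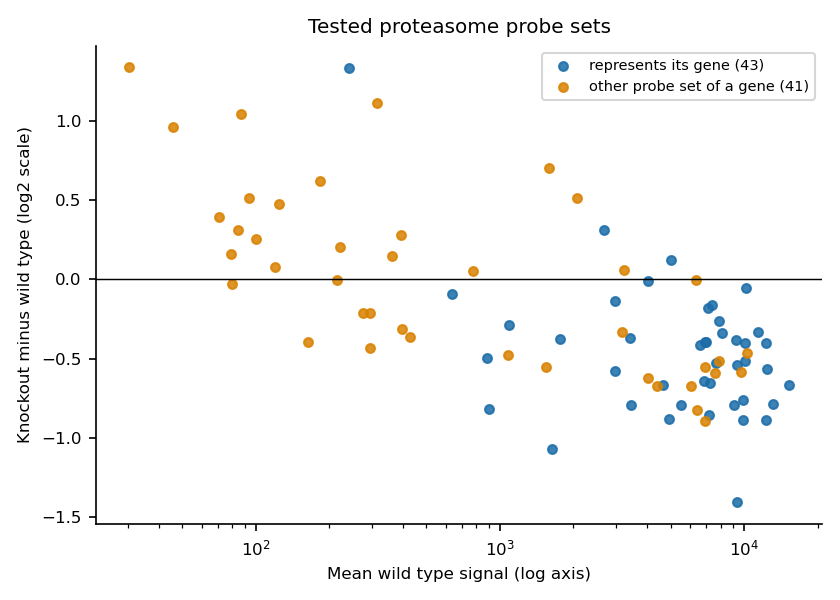
Difference between knockout and wild type (vertical axis, log2 scale) of the 84 tested member probe sets against their mean wild type signal (log axis), with blue points for the probe set that represents its gene and orange points for the others. Most probe sets above a signal of 1000 lie below zero, and 17 of the 28 below it lie above zero.

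Partners and regulators of the proteasome were read from lists of genes with other names. Of 14 tested partners, such as shuttle proteins that deliver ubiquitinated substrates, 11 had a negative difference (median -0.29) and limma called 0. The largest differences were those of the shuttle genes Rad23b (-0.77, SE 0.41), Ubqln2 (-0.61, SE 0.41) and Ubqln4 (-0.44, SE 0.29). Knockout arrays 2 and 3 were the lowest pair in 8 of the 14 (57.1%). The share was 26.0% over all genes and 51.3% over genes with a mean log2 value above 12. Of 7 tested genes of ubiquitin activation and of the p97 segregase, which extracts ubiquitinated proteins from membranes, 5 were negative (median -0.37) and 0 were called. Nploc4, a p97 cofactor, stood at -0.92 (SE 0.48), Faf2, a cofactor at the endoplasmic reticulum, at 0.86 (SE 0.62), and Uba6, a ubiquitin-activating enzyme, at 0.54 (SE 0.37). Nploc4 overlapped between the groups, with knockout arrays 2 and 3 lowest. Faf2 was higher only in knockout arrays 2 and 3 (3437 and 3352), and the other knockout arrays lay between the wild type values. For Uba6 all 5 knockout arrays lay between the wild type values of 1465 and 4323.

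Among genes that control proteasome transcription, 6 of 11 tested had a negative difference (median -0.12) and 0 were called. In each of knockout arrays 2 and 3, 9 of the 11 lay below the wild type mean, with medians of -0.17 and -0.40, and these arrays were the lowest pair in 2. The difference between this list and the subunits was not tested. Nfe2l1 stood at 2476 and 1822 in wild type arrays and at 2127, 2481, 2821, 1846 and 1689 in knockout arrays. Its groups overlapped (0.02, SE 0.29, limma adjusted p = 0.983), and knockout arrays 2 and 3 were the highest of the 7. The largest differences were those of Maff, a small Maf partner (-1.49, SE 0.55), of Btrc, which encodes a substrate receptor of a ubiquitin ligase (-0.85, SE 0.61), and of Ogt, a sugar transferase that modifies nuclear and cytosolic proteins (0.48, SE 0.35). At an unadjusted limma p below 0.05, 1 of these 11 genes was lower, Maff, and 0 were higher. Among the 14 partners and the 7 genes of ubiquitin and p97 there were 0. The share over all genes was 3.22% lower and 4.38% higher. Maff had signals of 245.7 and 176.2 in wild type arrays and of 67.0, 58.5, 28.2, 205.5 and 28.1 in knockout arrays. Its groups overlapped, with knockout array 4 between the wild type values.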

How the data were processed

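Total RNA of 7 samples was profiled on 1 array each. The deposited values are intensities, 1 linear signal per probe set, made by the authors with MAS5 (version not stated), according to the submitters' processing notes. With 2% trimmed at each end, every array had a mean of 500, so the deposited signals were already scaled. Their medians lay between 92.6 and 124.9, a 1.35-fold range that stayed under the limit of 1.5, and no further normalization was made. The table has no detection calls.

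The pseudocount of 20.2 is the 20th percentile of all values. After 64 control probe sets were set aside, probe sets whose mean log2 value exceeded the 40th percentile were tested with limma 3.58.1 in R 4.3.3 (lmFit, eBayes with a trend, two-sided). The fit was tested on simulated data. Figures used matplotlib 3.10.9.

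Members and lists were chosen with earlier results of these data known. Values per array are given for the catalytic subunits, the largest difference in each direction per role, members at least 0.5 apart whose groups do not overlap, and genes with probe sets of opposite sign; other members were added as values. Alternatives covered normalization, filter, pseudocount, variance model, array weights, averaging of probe sets, a replicate block and left-out arrays. Counts of negative members and of members whose groups do not overlap were recomputed by alternatives chosen after seeing the data. Protein sequences were not used here.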

Additional observations from a re-analysis of the deposited data

Results flagged for a closer look

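Among 79 genes examined in the 5 knockout arrays, 2 had a sample far from the others, where chance alone flags about 1 group in 20. Psmg3, an assembly chaperone gene, had a signal of 1329 in knockout array 4, against 729.2 to 834.4 in the other knockout arrays. Sem1, which encodes a small subunit of the regulatory particle, had 7242 in knockout array 4, against 5436 to 5809 in the others.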

How the results depend on the processing

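In the 19 alternatives run, limma called 0 member probe sets in each, and the lowest adjusted p of a member was 0.195; with 2 wild type arrays few differences of the members' size can pass, so this says nothing about stability. The members' median stayed negative in each, from -0.67 (without wild type array 2) to -0.21 (without knockout arrays 2 and 3, or with them as a batch term), and with 1 array left out it ran from -0.67 to -0.39. Median centring moved the median of all genes by -0.12, and the members' median relative to it was -0.50 as before; after quantile normalization it was -0.28 relative to all genes. Negative members numbered 34 to 40. Members with all knockout arrays below all wild type arrays numbered 15 in the main fit, where the share over all genes was 7.44%. With 1 array left out they numbered 15 to 31. They were 31 without wild type array 2 (28.2% of all genes) and 19 without wild type array 1 (15.2% of all genes). After quantile normalization there were 7 (9.43% of all genes). Median centring left 15 (10.8% of all genes), where Psmb5, Psmc1 and Psmd13 stood in place of Psma6, Psmd12 and Psmd14. The calls over the array (8) became 4 with the filter at the 60th percentile, 5 without a filter, 2 with probe sets averaged per gene (2 of 13120 genes), 5 without knockout arrays 2 and 3, and 0 to 7 with 1 array left out. Calr ran from -3.78 to -3.52 with 1 array left out and, at a similar size, lost its call with either wild type array alone.

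Of the values of the 26 genes named by rule, 472 kept their direction and 22 changed sign. Without knockout arrays 2 and 3, and with them as a batch term alike, these were Psma1 (0.11), Psma3 (0.062), Psme4 (0.35) and Psmg2 (-0.20). With probe sets averaged they were Psma1 (0.70), Psma3 (0.21), Psma6 (0.060), Psme4 (0.12) and Psmg3 (0.0093). Psma3 was 0.13 after quantile normalization, 0.0047 without knockout array 3, and from -0.26 to 0.15 with 1 array left out. Psme4 was 0.10 with array weights, 0.055 and 0.0060 without knockout array 2 or 3, and from -0.55 to 0.22 with 1 array left out. Without wild type array 1, Psmc6 was -0.53 and Psmg3 0.090, and without wild type array 2 Psmc6 was 0.77. The cause was not tested.

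Wild type and knockout samples share replicate numbers 1 and 2. Between samples of the same number, deviations from the group means correlated at 0.11 and -0.0098. The deviations of the 2 wild type arrays are opposite by construction, so these values cannot decide whether samples were paired. The labels give the number only as that of a biological replicate. With a replicate block the calls over the array were 15, none of them a member, and the members' median was -0.54.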
